A study of Mus musculus with 14 samples.

Results

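Acolbifene (EM-652.HCl), a nonsteroidal ligand that blocks estrogen receptors, was given to ovariectomized mice together with 17-beta-estradiol (E2), and their mammary glands were set against those of mice given E2 alone. The comparison holds 4 of the 14 arrays of the series, chosen by the treatment in the labels: 2 with estradiol plus acolbifene, called the combination here, and 2 with estradiol. Vehicle (2 arrays) and acolbifene without E2 (2 arrays) are the points of reference. All mice were C57BL/6 females, 11 to 12 weeks old on arrival, whose ovaries, the main source of estrogen, had been removed 7 days earlier, and all glands were taken 3 h after treatment. The glands of the 8 mice of a group were pooled, so each array reads whole tissue with its epithelium, fat, vessels and immune cells, in which fewer cells of a type and less RNA per cell cannot be told apart. Within each of the 4 groups the raw-file names of the 2 arrays are alike apart from a prefix or a run suffix, and nothing in the labels says that they came from separate pools. What the p-values set a change against is thus the spread from array to array, and that spread may be technical.

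Estradiol binds estrogen receptor alpha, a nuclear receptor that then gathers coactivators at enhancers and raises or lowers genes within hours. Blockers occupy the same pocket and hold the receptor in a shape that does not take up coactivators. In the mammary gland the receptor sits in part of the luminal cells, the inner layer of the ducts, and in stroma, and the progesterone receptor is its classical target there.

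Levels are log2 values made with RMA, in which a difference of 1 is 2-fold. Each gene was read from its brightest probe set, and a gene is called where limma, fitted over all probe sets, gave an adjusted p under 0.05. Among markers of the expected tissue, 15 of 15 luminal, 13 of 14 basal and 12 of 12 adipocyte markers lay at or above 6.65. So did 13313 of all 18193 genes, so that this alone does not show that a cell type was present. Under that level fell 40% of probe sets, which are called dim here. The E2 pair was the less even of the 2 pairs, with 310 probe sets over 1.5-fold apart against 75 in the combination. E2 array 1 carries another raw-file code (R136) than the other 3 arrays of the comparison (R137), and the meaning of the code is not given. The rest of the combination's raw-file names is also that of the single array of raloxifene without E2. On the log2 scale, hybridization spikes averaged 10.01 and 10.04 on the E2 arrays and 10.38 and 10.23 on those of the combination, and the difference between the 3' and 5' probe sets of Actb, a sign of RNA quality, was 0.41 and 0.43 against 0.30 and 0.31, with 0.24 to 0.30 in vehicle and acolbifene alone. The spikes averaged 10.33 and 10.36 in vehicle and 10.41 and 10.36 with acolbifene alone. In both measures the E2 arrays thus stood apart from all other arrays of the 4 groups. A technical difference along these lines cannot be told apart from the effect of acolbifene on top of E2, nor from that of E2 against vehicle. All values below that build on the E2 arrays share this limit. The spread of levels was narrower in the combination as well, with an interquartile range of 2.87 and 2.81 against 2.95 and 3.02.

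More genes were called lower than higher when acolbifene was given with E2, above all among the larger changes. Of 18193 genes, 680 were called (3.74%), 386 lower (2.12%) and 294 higher (1.62%) in the combination than with E2 alone. Over probe sets, 1649 of 45037 were called (3.66%), 913 lower (2.03%) and 736 higher (1.63%), and at 1.5-fold or more 272 were lower and 88 higher. Without regard to the test, 29.4% of genes lay higher and 31.3% lower on both combination arrays than on both E2 arrays. The split of calls moved with the scaling: after another quantile normalization it was 759 lower and 275 higher, and after centring arrays on their medians 2102 lower and 427 higher. In the 4 arrays alone with arrays of unlike replicate number paired, a fit added after seeing the data, 1762 were lower and 1956 higher, so that the excess turned. The number of called probe sets was 284 without E2 array 1, which is also the value within code R137, 240 without E2 array 2 (125 lower and 115 higher), 223 without combination array 1 and 116 without combination array 2.

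The largest fall was in Krt4, a keratin of stratified epithelia that E2 alone had raised. Krt4 read 7.11 and 6.97 on the vehicle arrays, 10.95 and 10.38 after E2 and 8.37 and 8.17 in the combination. The 2 groups did not overlap, and the combination lay 5.26-fold below E2 (log2 change -2.40 ± 0.15, adjusted p = 0.000124, limma, 2 arrays per group). It did not return to the vehicle level, from which it still differed by 1.23 ± 0.15, adjusted p = 0.00564. Acolbifene alone left Krt4 at 7.19 and 7.20, not called against vehicle (adjusted p = 0.679). Its dimmer probe set fell by 2.02. Aqp5, a water channel of gland epithelia, followed the same course, at 10.60 and 10.37 after E2 and 9.57 and 9.56 in the combination (-0.92 ± 0.10, adjusted p = 0.00181). Of 24 measured keratins and keratinization genes 2 were lower, Krt4 and Krt79 (-0.52), and 0 higher (Krt4 alone when any 1 of the 4 arrays was left out), and the list median was -0.01 against -0.0035 over all genes. The share of the list that was called was 8.33%, against 3.74% of all genes. This and the other lists were chosen with earlier results of these data known, which can raise such shares. Basal keratins that E2 had raised had changes that were not called, -0.24 for Krt14 (adjusted p = 0.146) and -0.08 for Krt5 (adjusted p = 0.635).

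Pgr, the progesterone receptor, fell part of the way from its level after E2 towards that of vehicle. It read 8.05 and 7.57 in vehicle, 10.59 and 10.55 after E2, 9.62 and 9.60 in the combination and 8.81 and 8.38 with acolbifene alone, which was 0.78 above vehicle and not called (adjusted p = 0.0546). The combination lay between E2 and vehicle on both arrays, 1.95-fold below E2 (-0.97 ± 0.16, adjusted p = 0.0159) and still 1.80 above vehicle (adjusted p = 0.000640). This fall lost its call when any 1 of the 4 arrays was left out, with adjusted p = 0.0719 and 0.0862 without E2 array 1 or 2 and 0.0632 and 0.0984 without combination array 1 or 2, while its size stayed within -0.94 to -0.99. Dimmer probe sets of Pgr read 0.14 and -0.25 and were not called. Inhbb, the activin and inhibin beta-B subunit, stood at 10.17 and 10.10 in vehicle, 10.90 and 11.05 after E2 and 10.37 and 10.21 in the combination (-0.68 ± 0.09, adjusted p = 0.00753), a return to 0.15 from vehicle that was not called (adjusted p = 0.394). Across the list of estrogen receptor targets 2 of 30 measured members were lower (Pgr and Inhbb), 1 was higher (Gata3), and the median was -0.02. The share called was 10%, against 3.74% of all genes. The list had 1 call without E2 array 1, 0 without E2 array 2, 2 without combination array 1 and 0 without combination array 2. Among members that E2 had moved, Sgk1, a kinase of ion transport, had a difference of -0.28 (adjusted p = 0.0973), the secreted signal Wnt4 of 0.47 (adjusted p = 0.0532) and Cish, a brake on cytokine receptors, of 0.35 (adjusted p = 0.0713), none of them called. Neither estrogen receptor was called, with -0.02 for Esr1 (adjusted p = 0.926) and -0.02 for Esr2 (adjusted p = 0.951), whose probe set was dim.

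**Figure D1:**
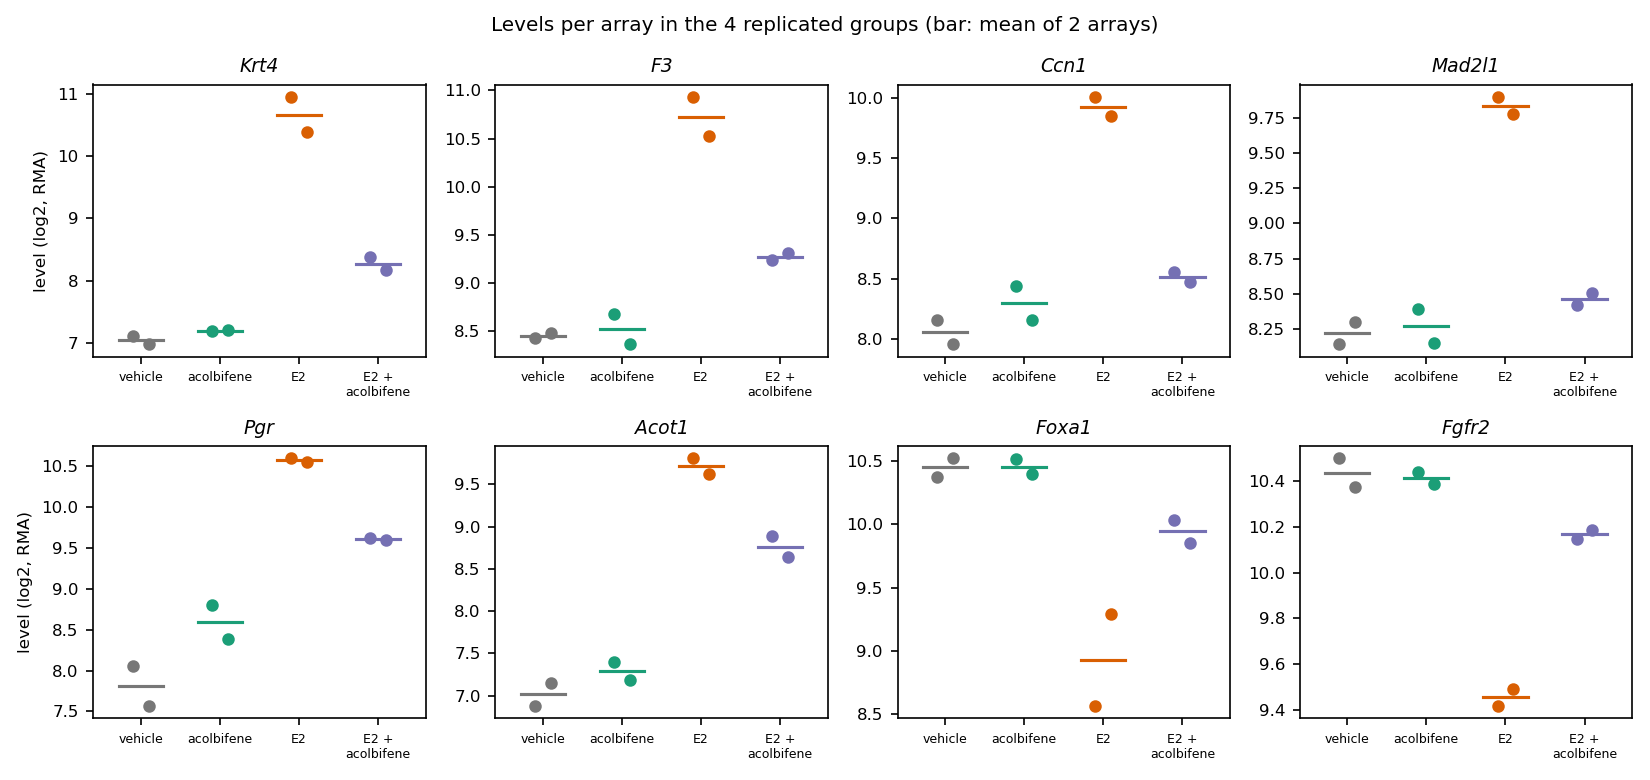
Log2 level of 8 genes (y axis) on each array of vehicle, acolbifene, E2 and E2 with acolbifene (x axis); points are arrays and bars the mean of 2. In the first 6 genes the combination lies below both E2 arrays, with a log2 difference of -2.40 for Krt4 and -0.95 for Acot1, and in Foxa1 and Fgfr2 above them, at 1.02 and 0.71.

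Tissue factor and the matricellular protein Ccn1 had the next largest falls. F3, which encodes tissue factor, the trigger of clotting, read 8.43 and 8.48 in vehicle, 10.93 and 10.52 after E2 and 9.24 and 9.31 in the combination, a 2.74-fold fall (-1.45 ± 0.14, adjusted p = 0.000879). Ccn1, which binds integrins in the matrix, read 8.16 and 7.96, 10.01 and 9.85 and 8.56 and 8.48 in the same order, a 2.66-fold fall (-1.41 ± 0.12, adjusted p = 0.000391), and its 3 other probe sets changed by -0.78, -1.07 and -1.44. Both genes lay below both E2 arrays in the combination, and F3 stayed above vehicle by 0.82 (adjusted p = 0.0244), while the 0.46 left in Ccn1 was not called (adjusted p = 0.0878). Their promoters are shown because they were the largest falls with a RefSeq window, which runs from 250 bases before to 50 after the start on GRCm38.p6. Capitals mark matches to TGANTCA, the motif of AP-1 (Fos and Jun) dimers.
F3, chr3:121723287-121723586, plus strand: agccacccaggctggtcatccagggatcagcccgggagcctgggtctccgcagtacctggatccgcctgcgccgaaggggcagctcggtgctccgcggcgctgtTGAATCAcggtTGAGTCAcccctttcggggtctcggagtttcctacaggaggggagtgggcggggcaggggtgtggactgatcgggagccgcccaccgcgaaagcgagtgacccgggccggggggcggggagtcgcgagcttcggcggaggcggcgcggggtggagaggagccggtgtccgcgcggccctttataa
Ccn1, chr3:145649936-145650235, minus strand: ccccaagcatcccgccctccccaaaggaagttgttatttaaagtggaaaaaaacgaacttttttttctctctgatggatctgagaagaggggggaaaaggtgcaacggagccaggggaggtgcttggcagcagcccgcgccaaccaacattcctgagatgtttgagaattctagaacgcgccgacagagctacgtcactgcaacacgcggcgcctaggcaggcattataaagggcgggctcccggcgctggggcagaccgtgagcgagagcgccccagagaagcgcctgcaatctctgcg
The F3 window holds 2 matches to TGANTCA, beginning at offsets -146 and -135 from the start, and the Ccn1 window none. The 3 motifs searched on both strands were the estrogen response element (GGTCA and TGACC separated by any 3 bases), TGANTCA, and TGACGTCA, the cyclic AMP response element. TGANTCA stood in 5.82% of the 395 windows of genes that fell, 7.24% of the 290 windows of genes that rose and 7.81% of all 32851 windows. The estrogen response element stood in 0 of the windows of either set and in 0.0700% of all windows, and TGACGTCA in 2.28%, 1.03% and 1.79%. The full estrogen response element is so rare, in 23 of all 32851 windows, that 0 in sets of this size cannot show its lack.

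Further genes of coagulation, matrix remodelling and secretion fell. In the list of coagulation and plasminogen activation 3 of 18 measured genes were lower and 0 higher (16.7% called against 3.74% of all genes): F3, the thrombin receptor F2r (-0.46) and thrombospondin Thbs1 (-0.70). The list had 2 calls without E2 array 1 and 1 without any other of the 4 arrays. Adamts1, a protease that trims matrix proteoglycans, read 10.31 and 10.46 after E2 and 9.29 and 9.24 in the combination (-1.12 ± 0.10, adjusted p = 0.000626). It joined Adamts15 (-0.55) as the 2 of 23 secreted proteases and inhibitors that were lower, while the macrophage elastase Mmp12 was higher (0.44 ± 0.10, adjusted p = 0.0350), which made 3 of 23 called. Mmp12 differed from the others in its course, at 7.51 and 7.62 in vehicle, 7.69 and 7.50 after E2, 8.46 and 8.54 with acolbifene alone and 8.02 and 8.05 in the combination. Thbs1 was raised by E2 (1.29) and by acolbifene alone (1.13), and read 8.88 and 9.01 when both were given, below the 9.57 and 9.71 of E2 and the 9.57 and 9.38 of acolbifene alone. Ccn2, a relative of Ccn1, had that course too, with 1.20 after E2, 1.02 after acolbifene and 0.82 after both. Angiogenic and vasoactive factors had 4 of 22 lower and 0 higher (18.2% called): Thbs1, the heme oxygenase Hmox1 (-0.69), the hypoxia factor Hif1a (-0.58) and the endothelial growth factor Vegfa (-0.40). That count was 2 without E2 array 1, 1 without E2 array 2 and 0 without combination array 1 or 2.

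Immediate-early genes, which growth signals switch on without new protein synthesis, were the pathway list with the most calls. Of 35 measured members 14 were lower and 1 higher (42.9% against 3.74% of all genes), and the list median was -0.24. The list was chosen with earlier results of these data known, and 34 of its 35 members were not dim, against 13313 of 18193 genes. The list stood at medians of 0.18 and 0.30 above vehicle on the E2 arrays and 0.01 and -0.04 on those of the combination. Junb, a partner of Fos in AP-1, read 8.49 and 8.62 in vehicle, 9.61 and 9.55 after E2 and 8.80 and 8.62 in the combination (-0.87 ± 0.10, adjusted p = 0.00262). Fosl2 (-0.86), Egr1 (-0.76), Fos (-0.63), Egr2 (-0.61) and Ier2 (-0.52) fell as well, and none of these 6 genes was called against vehicle in the combination. Fos itself read 10.49 and 10.46, 10.88 and 11.10 and 10.35 and 10.38 in the same order of groups. Jdp2, a repressor that dimerizes with Jun and was outside the list, fell with them, from 9.65 and 9.64 to 8.74 and 8.71 (-0.92 ± 0.10, adjusted p = 0.00185), although its dim probe set read -0.05. The growth arrest genes Gadd45a (-0.96 ± 0.12, adjusted p = 0.00427) and Gadd45g (-0.84 ± 0.12, adjusted p = 0.0105) fell, Gadd45g to 8.55 and 8.36, which was still 0.73 above vehicle (adjusted p = 0.0257). Myc (-0.45), Dusp6 (-0.55), Ier3 (-0.45) and Zfp36 (-0.34) completed the list's falls together with Ccn1 and Ccn2, and the nuclear receptor Nr4a3 was the member that rose (0.44 ± 0.10, adjusted p = 0.0367). Jun (-0.24, adjusted p = 0.134) and Atf3 (-0.19, adjusted p = 0.223) were not called. The number lower was 6 without E2 array 1, 5 without E2 array 2, 7 without combination array 1 and 4 without combination array 2.

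**Figure D2:**
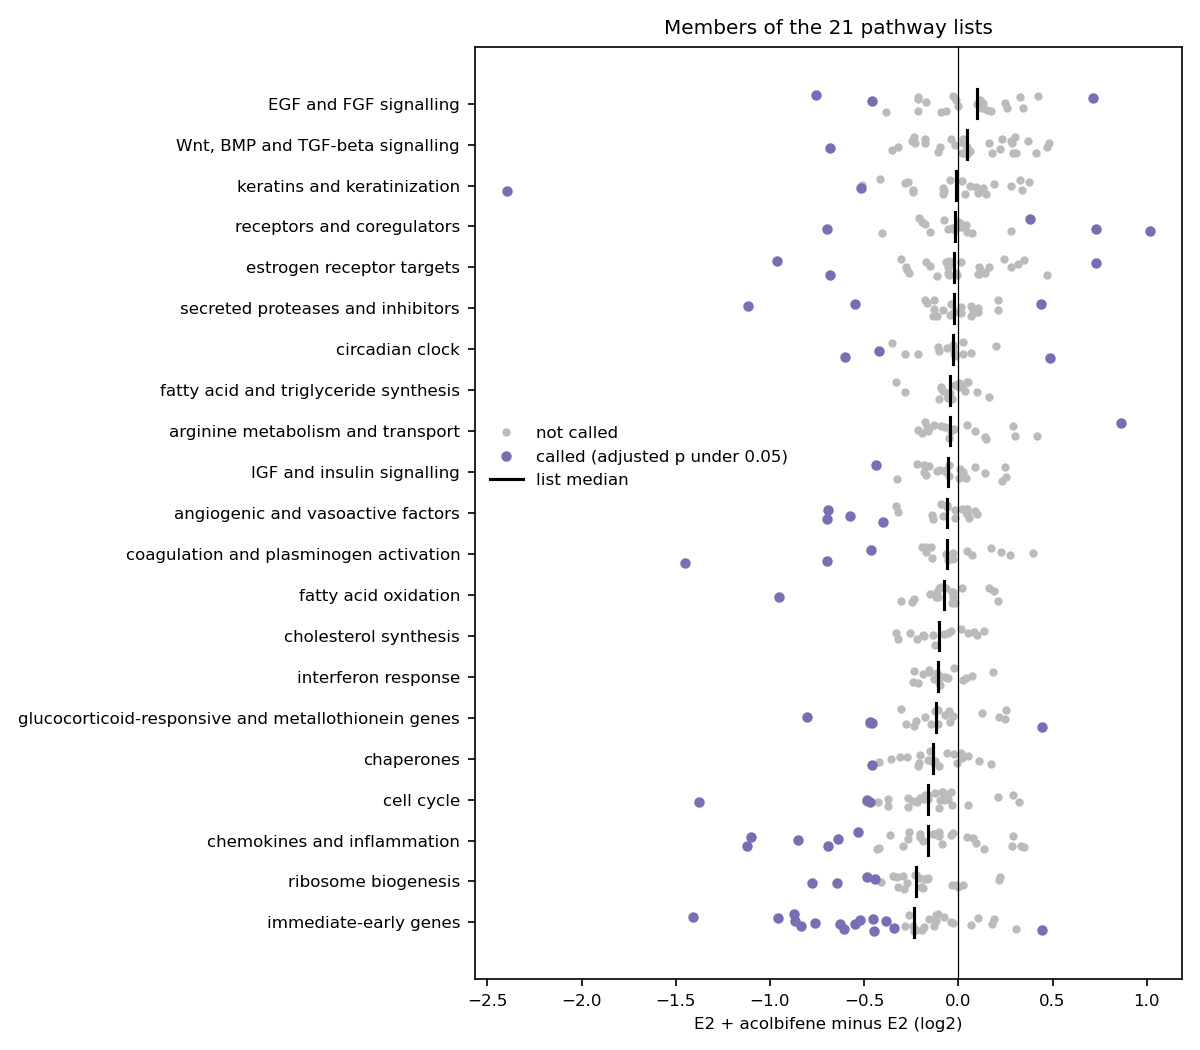
Log2 difference of E2 with acolbifene minus E2 (x axis) for the measured members of 21 pathway lists (y axis, ordered by median); purple points were called by limma, grey points were not, and bars are list medians. The immediate-early list has the lowest median, -0.24, and Krt4, at -2.40, is the lowest point.

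Several genes of cytokine signalling and inflammation were lower in the combination. Ptx3, a pentraxin of innate immunity, read 8.94 and 9.01 in vehicle, 10.59 and 10.33 after E2, 9.78 and 9.73 with acolbifene and 9.33 and 9.36 with both (-1.12 ± 0.10, adjusted p = 0.000626). Either agent alone had raised it, and with both it lay below either. Socs3, which shuts off cytokine receptors, read 10.89 and 10.84 after E2 and 9.68 and 9.85 in the combination (-1.10 ± 0.11, adjusted p = 0.000945), and its 2 other probe sets fell by 0.84 and 0.88. Within the list of chemokines and inflammation 6 of 30 were lower and 0 higher (20% called against 3.74% of all genes). They were Ptx3 and Socs3 with the acute-phase gene Saa3 (-0.85), the monocyte chemokines Ccl7 (-0.69) and Ccl2 (-0.64) and the NF-kappa-B regulator Nfkbiz (-0.53). Saa3 and Ccl2 were not called after E2 alone (0.26, adjusted p = 0.419, and 0.29, adjusted p = 0.120). Saa3 read 10.42 and 10.59 in vehicle, 11.04 and 10.50 after E2 and 10.11 and 9.73 in the combination, and the E2 arrays were further apart from each other than those of the combination. The list count was 4 and 5 without E2 array 1 or 2 and 3 and 2 without combination array 1 or 2. Macrophage markers had 0 of 16 called, with a median of 0.01, and the log2 of their summed level was 15.32 and 15.31 after E2 and 15.35 and 15.32 in the combination. Of the 19 interferon response genes 0 were called.

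Mad2l1, a component of the spindle checkpoint, was the one large fall among cell cycle genes. It read 8.14 and 8.30 in vehicle, 9.90 and 9.78 after E2 and 8.42 and 8.51 in the combination (-1.38 ± 0.11, adjusted p = 0.000265). It was thus within 0.24 of vehicle, a difference that was not called (adjusted p = 0.247). In the list 3 of 31 were lower and 0 higher (9.68% called against 3.74% of all genes). They were Mad2l1, the replication helicase subunit Mcm3 (-0.48) and the cell cycle inhibitor Cdkn1a (-0.47). Mad2l1 alone was called when any 1 of the 4 arrays was left out. Ribosome biogenesis had 4 of 26 lower and 0 higher (15.4% called), Rrs1 (-0.78), Nop58 (-0.64), the RNA helicase Ddx21 (-0.49) and Gnl3 (-0.44), with a median of -0.22. Without E2 array 1 that count was 2, without combination array 1 it was 1, and without E2 array 2 or combination array 2 it was 0. Among chaperones 1 of 23 was lower, Hsph1 (-0.46), a share of 4.35% near that of all genes.

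Other named falls covered diverse functions. Mmd2, a Golgi membrane protein, read 9.11 and 9.18 after E2 and 7.85 and 7.80 in the combination (-1.32 ± 0.10, adjusted p = 0.000254), and another probe set fell by 1.78 while a dim one read 0.20. Rbm20, a splicing factor, went from 8.22 and 8.13 to 7.20 and 7.12 (-1.01 ± 0.09, adjusted p = 0.000626). Phf21b, a PHD finger protein that was dim in vehicle, went from 7.07 and 6.82 back to 5.75 and 5.93 (-1.11 ± 0.12, adjusted p = 0.00176), against 5.88 and 5.71 in vehicle. Acot1, an acyl-CoA thioesterase, fell less than E2 had raised it, from 9.81 and 9.62 to 8.89 and 8.64 (-0.95 ± 0.13, adjusted p = 0.00666), and remained 1.75 above vehicle (adjusted p = 0.000231). It was the only called member of 20 fatty acid oxidation genes, and its call was lost without E2 array 1 (-0.86, adjusted p = 0.0517) and without combination array 2 (-0.83, adjusted p = 0.0652). Mup10, a major urinary protein, read 7.32 and 6.87 in vehicle, 8.27 and 8.14 with acolbifene alone, 7.73 and 7.72 after E2 and 7.03 and 6.49 with both. Its fall (-0.96 ± 0.17, adjusted p = 0.0200) lost its call without E2 array 1 (adjusted p = 0.0795), E2 array 2 (adjusted p = 0.114) or combination array 2 (adjusted p = 0.121). Of the 15 named falls, 12 (all but Pgr, Mup10 and Acot1) kept their call in each alternative fit that tested them; Phf21b was too dim for the fit without dim probe sets, and the other 11 were tested in all.

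Several regulators of the luminal lineage were higher in the combination than after E2. Foxa1, which opens chromatin for the estrogen receptor, read 10.38 and 10.52 in vehicle, 8.56 and 9.29 after E2 and 10.04 and 9.85 in the combination (1.02 ± 0.18, adjusted p = 0.0206). The combination lay above both E2 arrays, and its -0.51 from vehicle was not called (adjusted p = 0.174). Gata3, a master regulator of luminal fate, read 8.27 and 8.25, 7.32 and 7.52 and 7.96 and 8.34 in the same order (0.73 ± 0.13, adjusted p = 0.0183), and was -0.11 from vehicle. Fgfr2, a growth factor receptor of ductal epithelium, went from 9.42 and 9.49 to 10.15 and 10.19 (0.71 ± 0.09, adjusted p = 0.00418), with -0.27 from vehicle not called (adjusted p = 0.142). The tight junction genes Cldn8 and Cldn3 were higher too. Cldn8 read 6.98 and 6.94 after E2 and 7.48 and 7.81 in the combination (0.68 ± 0.11, adjusted p = 0.0165), and Cldn3 9.33 and 9.24 and 9.90 and 10.00 (0.67 ± 0.09, adjusted p = 0.00584). Lratd1 rose from 7.13 and 7.80 to 8.17 and 8.38 (0.81 ± 0.17, adjusted p = 0.0339). In contrast Tfap2c, a further transcription factor of luminal cells, had been raised by E2 (1.07) and was lower in the combination (-0.69 ± 0.14, adjusted p = 0.0273), as was Fgfr3 (-0.75 ± 0.11, adjusted p = 0.0105). Of 15 luminal markers 3 were higher (Foxa1, Gata3, Cldn3) and 1 lower (Pgr), 26.7% called against 3.74% of all genes. The list median was -0.02, and the keratins Krt8 (0.09, adjusted p = 0.600) and Krt18 (0.06, adjusted p = 0.745) were not called. The log2 of the summed level of the 15 luminal markers was 13.75 and 13.70 after E2 and 13.72 and 13.66 in the combination. Among receptors and coregulators 3 of 21 were higher (Foxa1, Gata3 and the coactivator Ppargc1a, 0.38) and 1 was lower (Tfap2c), 19.0% called. The luminal list and this one had 1 and 0 calls without E2 array 1, 2 and 1 without E2 array 2, 2 and 2 without combination array 1, and 0 and 1 without combination array 2. E2 array 1 was the lower of the pair for Foxa1 and Lratd1, whose changes without it were 0.65, adjusted p = 0.0542 and 0.48, adjusted p = 0.102. Their calls were lost too without combination array 1 (adjusted p = 0.0839 and 0.0765) or 2 (adjusted p = 0.0904 and 0.190). Gata3 and Cldn8 lost theirs without E2 array 1 (adjusted p = 0.0833 and 0.0656), E2 array 2 (adjusted p = 0.0546 and 0.0977) or combination array 2 (adjusted p = 0.114 and 0.111), and Fgfr2 kept its call in every alternative.

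Arg2, the mitochondrial arginase, and the platelet chemokine Ppbp were the other rises that kept their call wherever tested, although Ppbp was too dim for the fit without dim probe sets. Arg2 read 6.82 and 7.04 in vehicle, 6.16 and 6.23 after E2 and 7.17 and 6.95 in the combination (0.86 ± 0.11, adjusted p = 0.00405), though its dimmer probe set read -0.24 and was not called. It was the only called member of 20 genes of arginine metabolism and transport. Ppbp read 6.43 and 6.37, 6.01 and 5.94 and 6.70 and 6.70 in the same order (0.73 ± 0.08, adjusted p = 0.00285). For both genes the combination was above both E2 arrays and not called against vehicle (adjusted p = 0.519 and 0.108). Tpx2, a spindle protein, was higher at its brightest probe set (0.72 ± 0.13, adjusted p = 0.0200) and not called at its 3 others (0.50, -0.06 and 0.19). The immunoglobulin segment Igkv6-20 (0.78) and the RIKEN transcript 4930524B17Rik (0.69) were higher than with E2 and than with vehicle, by 0.62 and 0.57 for the latter comparison. All 3 lost their calls without E2 array 2 (adjusted p = 0.125, 0.0564 and 0.0527) and without combination array 2 (adjusted p = 0.117, 0.0722 and 0.0675), and Tpx2 and Igkv6-20 without combination array 1 (adjusted p = 0.0711 and 0.0600). Lymphocyte markers as a list had 0 of 15 higher and 1 lower, Cd3g (-0.41).

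Skeletal muscle genes made up the remaining named rises, and their level differed between the 2 E2 arrays. The list median against vehicle was -0.36 and 0.53 on the 2 E2 arrays and 0.80 and 0.70 in the combination. The log2 of the summed level of its 26 markers was 13.50 and 14.64 after E2, 14.80 and 14.70 in the combination and 14.10 and 14.08 in vehicle. E2 array 2 was thus near the combination and E2 array 1 below vehicle. In the combination against E2, 26.9% of the 26 markers were called, against 3.74% of all genes. Of the 26 markers 7 were higher and 0 lower (median 0.76): glycogen phosphorylase Pygm (1.06), myosin light chain Myl2 (0.96), Trdn of the calcium release complex (0.93, with other probe sets between -0.30 and 0.88), alpha-actinin Actn2 (0.91), calsequestrin Casq1 (0.88), Myoz1 (0.63) and Myom2 (0.46). The number was 2 without E2 array 1, 20 without E2 array 2 and 1 without combination array 1 or 2. Pygm read 7.98 and 8.86 after E2 and 9.59 and 9.36 in the combination, and without E2 array 1 its change was 0.62, adjusted p = 0.0780. Actn2 read 6.17 and 5.95 in vehicle, 6.64 and 7.03 after E2 and 7.79 and 7.70 in the combination, and kept its call without either E2 array but not without combination array 1 or 2 (adjusted p = 0.0562 and 0.0574). Myl2 (0.74, adjusted p = 0.0642) and Casq1 (0.52, adjusted p = 0.0861) were not called without E2 array 1 either. Myl2 also missed without combination array 2 (adjusted p = 0.102), Trdn without combination array 1 (adjusted p = 0.0520), and Pygm and Casq1 without combination array 1 (adjusted p = 0.106 and 0.0957) or 2 (adjusted p = 0.117 and 0.149). The abundant Acta1 (0.65, adjusted p = 0.146) and Ckm (0.79, adjusted p = 0.155) were not called. The part of muscle content in the other changes was not tested.

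**Figure D3:**
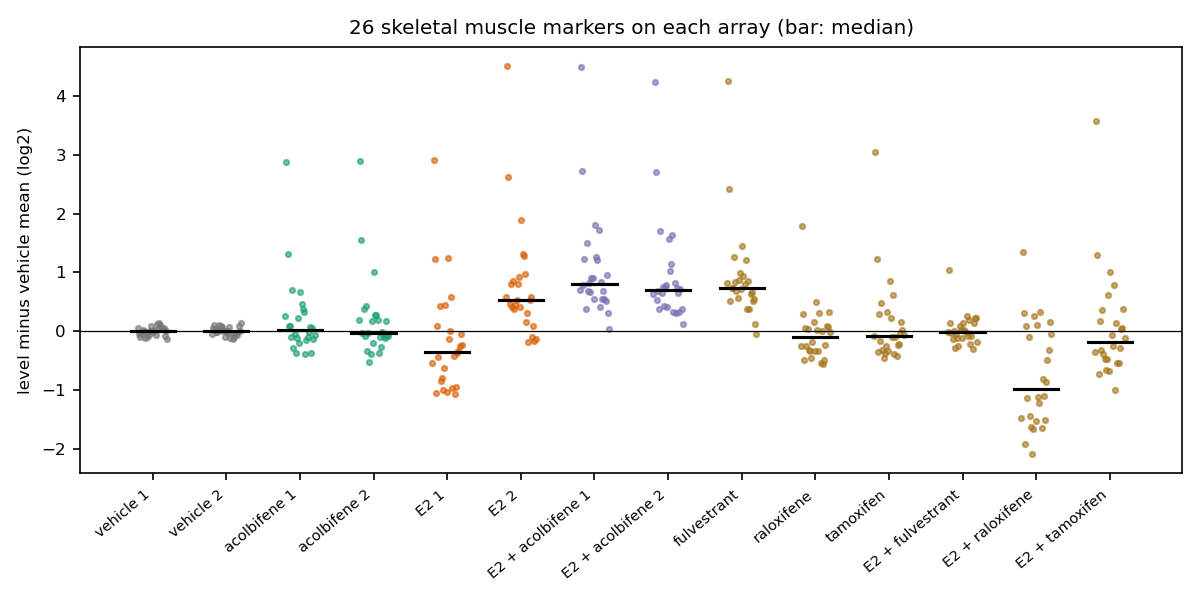
Log2 level minus the vehicle mean (y axis) of 26 skeletal muscle markers on each of the 14 arrays (x axis); points are genes and bars medians. The bar is at -0.36 on E2 array 1 and 0.53 on E2 array 2, and at 0.80 and 0.70 on the arrays of E2 with acolbifene.

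How much of the estradiol effect was missing in the combination differed widely from gene to gene. Because both differences use the same E2 arrays, they are set side by side for the 12 genes with the largest E2 rise and the 12 with the largest E2 fall, as a description and with no test of their relation. The missing share is the fall from E2 to the combination as a percentage of the rise from vehicle to E2, on the log2 scale. Among the rises it was 85.1% for Mad2l1, 75.5% for Ccn1, 69.7% for Mmd2, 66.1% for Krt4 and 63.9% for F3. It was lower, at 53.2% for Gadd45g, 51.9% for Aqp5, 35.2% for Acot1, 34.9% for Pgr and 15.6% for Smim38. Smim38, which encodes a small membrane protein, read 8.62 and 8.54 in vehicle, 10.60 and 10.35 after E2, 10.18 and 10.18 in the combination and 9.70 and 9.47 with acolbifene alone, and its change from E2 was not called (-0.30 ± 0.11, adjusted p = 0.127). All but Mad2l1 and Ccn1, 10 of the 12 genes, were still called above vehicle in the combination, a direction in which 0.599% of genes were called. The 12 genes were chosen by their rise over the same 2 vehicle arrays, which favours that call, so this count is a description. Over all probe sets 377 differed between the combination and vehicle, 204 higher (0.453%) and 173 lower (0.384%), 0.837% in all; after centring arrays on their medians 167 were higher and 346 lower. Between E2 and vehicle 1685 differed (3.74%), 933 higher (2.07%) and 752 lower (1.67%), and between acolbifene alone and vehicle 269 (0.597%), 183 higher (0.406%) and 86 lower (0.191%). Of the 12 genes, the 2 that were higher in the combination than after E2, neither of them called, were the fast muscle myosins Myh1 (0.66, adjusted p = 0.261) and Myh2 (0.79, adjusted p = 0.154).

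Among the 12 largest E2 falls the missing share was 72.5% for Fgfr2, 66.7% for Foxa1 and 61.5% for Lratd1, the 3 that were called in the combination against E2. The other 9 were not called there, and 8 of those 9, all but Ncan, were still called below vehicle, against 0.495% of genes. These genes too were chosen by their difference from the same vehicle arrays, which favours that call. Dbp, an output gene of the circadian clock, read 9.16 and 9.22 in vehicle, 8.02 and 8.48 after E2, 8.21 and 8.18 with acolbifene alone and 8.26 and 8.22 with both. Sqle, squalene epoxidase of cholesterol synthesis, read 10.44 and 10.42, 9.52 and 9.49, 9.95 and 9.89 and 9.64 and 9.64 in that order. Both genes were therefore below vehicle with either agent and with both. Another probe set of Dbp, nearly as bright, fell by 1.00 after E2 and read 0.33 in the combination against E2, not called (adjusted p = 0.0608). Over all probe sets, the change that acolbifene brought on top of E2 differed from its change without E2 at 2011 (4.47%), upwards at 697 (1.55%) and downwards at 1314 (2.92%). Tmprss2, a serine protease of epithelia, gave 0.01 at its brightest probe set but 0.64 (adjusted p = 0.0183) at the next brightest, where it was called. Its remaining probe sets gave 0.45 (adjusted p = 0.0507) and 0.41 (adjusted p = 0.0367, called), so its brightest probe set differed from the rest. Dixdc1 of Wnt signalling (0.30, adjusted p = 0.0980), the amino acid transporter Slc7a2 (0.42, adjusted p = 0.0730), Prune2 (0.19, adjusted p = 0.326) and Smim3 (0.06, adjusted p = 0.812) were not called between E2 and the combination. Ncan read 6.66 and 6.29 after E2 and 6.65 and 6.97 in the combination, and Gm6277 6.56 and 6.50 and 6.96 and 6.84.

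**Figure D4:**
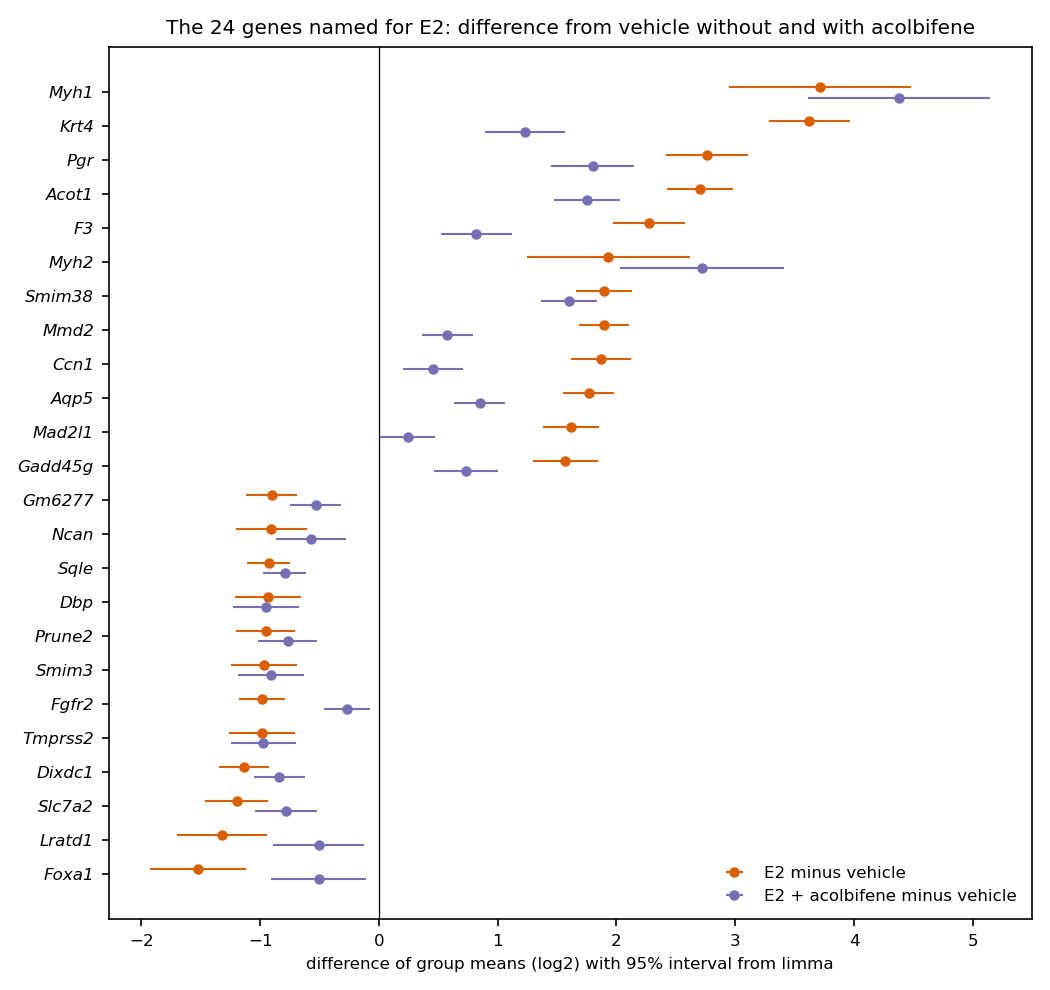
Difference from vehicle on the log2 scale (x axis) of the 24 genes named for E2 (y axis), after E2 and after E2 with acolbifene; points are differences of group means and bars 95% intervals from limma, 2 arrays per group. Krt4 goes from 3.62 to 1.23 and Mad2l1 from 1.62 to 0.24, while Dbp, at its brightest probe set, stays at -0.94 and -0.95.

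In the lists of cholesterol synthesis and glucocorticoid response many genes differed from vehicle with and without acolbifene. Cholesterol synthesis had 0 of 16 called in the combination against E2, with a median of -0.10, and 8 of 16 lower than vehicle (1.09% of all genes were called there, 0.495% lower), against 6 of 16 for E2 (3.95% of all genes called, 1.6% lower) and 2 for acolbifene alone (0.786% called, 0.242% lower). Fdps, farnesyl diphosphate synthase, read 10.54 and 10.49 in vehicle, 9.81 and 9.67 after E2 and 9.78 and 9.86 in the combination. Fatty acid and triglyceride synthesis had 0 of 21 called against E2. Of 22 glucocorticoid-responsive and metallothionein genes 14 were above vehicle after E2 and 10 in the combination, as were 10 with acolbifene alone, against 2.35%, 0.599% and 0.544% of all genes. In the combination against E2, 3 of them were lower, the metallothionein Mt2 (-0.80), Cdkn1a and the EGF receptor inhibitor Errfi1 (-0.46), and 1 was higher, Zbtb16 (0.44), 18.2% called against 3.74% of all genes. The list had 2 calls without E2 array 2 and 0 without any other of the 4 arrays. Fkbp5, a co-chaperone of the glucocorticoid receptor, read 9.83 and 9.78 in vehicle, 10.65 and 10.58 after E2, 10.90 and 10.89 with acolbifene and 10.51 and 10.37 with both, all 6 treated arrays above vehicle. Clock genes had 2 of 18 lower, Nfil3 (-0.60) and Cry1 (-0.42), and 1 higher, Ciart (0.49), with 0 called when any 1 array was left out. IGF and insulin signalling had 1 of 22 lower, the docking protein Irs1 (-0.44), which was lost with any array left out (4.55%, near the share of all genes), and Wnt, BMP and TGF-beta signalling 1 of 32, Inhbb. EGF and FGF signalling had Fgfr3 and Errfi1 lower and Fgfr2 higher among 25 (12% called). The clock list had 16.7% called, against 3.74% of all genes.

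Cell type markers outside muscle and luminal epithelium had few calls in number, in lists of 5 to 16 measured members. Adipocyte, endothelial, milk protein, erythroid and nerve lists had 0 called members of 12, 12, 12, 5 and 6, with medians of 0.01, -0.14, -0.09, 0.08 and 0.03. Adipoq, the hormone of adipocytes, read 13.77 and 13.91 after E2 and 13.93 and 13.82 in the combination. Basal and smooth muscle markers had 1 of 14 lower, the oxytocin receptor Oxtr (-0.41), and fibroblast and matrix markers 1 of 16, Pdgfra (-0.52). Keratinocyte markers had 1 of 12 higher, Krt77 (0.65). Brown adipocyte markers had 1 of 10 lower, the lineage factor Prdm16 (-0.88 ± 0.15, adjusted p = 0.0183), which read 8.36 and 8.85 after E2 and 7.72 and 7.71 in the combination, and 1 higher, Ppargc1a. The brown adipocyte list differed between the E2 arrays, with medians against vehicle of 0.19 and -0.38, and -0.10 and -0.08 in the combination. The share called was 7.14% of basal, 6.25% of fibroblast, 8.33% of keratinocyte and 20% of brown adipocyte markers, against 3.74% of all genes. These 4 lists had 0 calls without combination array 1 or 2, 1 without E2 array 1, in brown adipocytes, and 1 without E2 array 2, in keratinocytes.

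With the other blockers E2 was measured on 1 array each, without a test, all 3 with code R136, and no dose of any blocker is given in the sources used here. The 2 arrays of E2 with acolbifene carry code R137. Spikes averaged 9.98, 9.91 and 9.86 on the arrays of E2 with fulvestrant, raloxifene and tamoxifen, against 10.38 and 10.23 with acolbifene. The Actb difference was 0.38, 0.41 and 0.37, against 0.30 and 0.31. A technical difference along these lines cannot be told apart from a difference between acolbifene and the other blockers. Krt4 read 10.55 with E2 and fulvestrant, a steroidal antiestrogen, 9.24 with E2 and raloxifene, a benzothiophene, and 10.84 with E2 and tamoxifen, a triphenylethylene, beside 8.37 and 8.17 with E2 and acolbifene. F3 read 10.73, 9.79 and 10.65 in that order, beside 9.24 and 9.31. Mad2l1 read 9.11, 8.70 and 9.69, beside 8.42 and 8.51. In these 3 genes the arrays of acolbifene were the lowest of the 4 combinations and that of raloxifene the next. They were named for their fall with acolbifene, a choice that favours this ranking. Ccn1, Mmd2, Pgr and Aqp5 ranked alike, and Gadd45g and Ptx3 did not. Gadd45g read 8.44, 8.14 and 8.56, beside 8.55 and 8.36. Ptx3 read 10.02, 10.35 and 9.80, beside 9.33 and 9.36, with raloxifene the highest. Foxa1 read 9.23, 10.03 and 8.80, beside 10.04 and 9.85, with raloxifene inside or near the range of acolbifene. Fgfr2 read 9.72, 9.77 and 9.81, beside 10.15 and 10.19, with raloxifene below acolbifene.

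**Figure D5:**
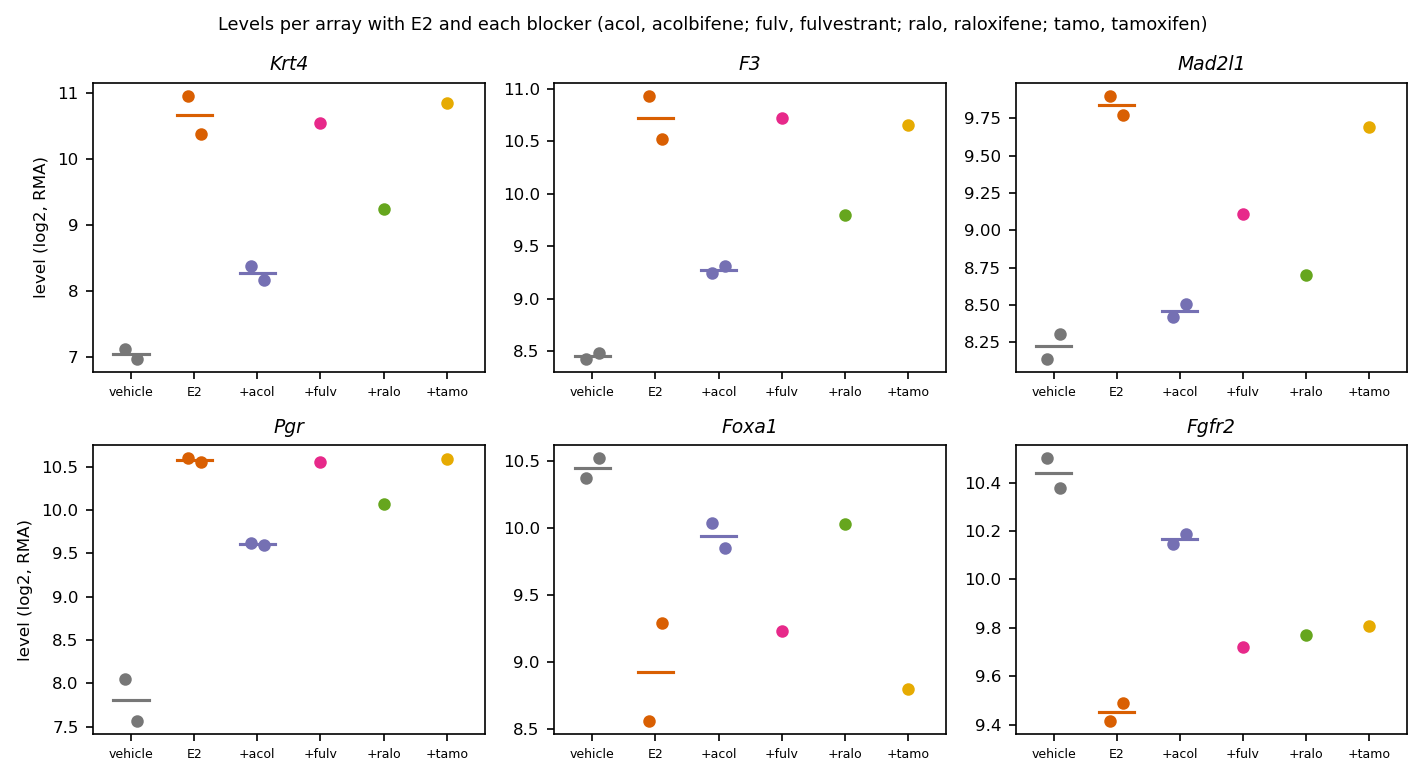
Log2 level of 6 genes (y axis) on each array of vehicle, E2 and E2 with each of 4 blockers (x axis); points are arrays, bars the mean of 2 arrays, and groups without a bar hold 1 array. Pgr reads 10.55, 10.07 and 10.59 with fulvestrant, raloxifene and tamoxifen, beside 9.62 and 9.60 with acolbifene.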

How the data were processed

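The authors deposited log2 expression levels, for which the submitters' processing notes name RMA; its version is not given in the sources used here. RMA compresses weak signals, so folds of dim probe sets can be understated. The probe set names are those of the Mouse Genome 430 2.0 array. After 64 control probe sets were set aside, 45037 were tested; 34945 carried 1 gene symbol by the platform annotation, 932 several and 9160 none here, and no gene was named from the last 2 kinds. A gene was represented by its brightest probe set, judged by the mean of the 14 arrays (18193 genes). Scanner intensities were not used here. Precision is limited by having 2 arrays per group.

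Groups were taken from the treatment in the labels. The tests were those of limma 3.58.1, run in R 4.3.3 (lmFit, eBayes, two-sided, Benjamini-Hochberg over 45037 probe sets, adjusted p under 0.05) in a fit of the 8 arrays of vehicle, E2, acolbifene and the combination; the fit was tested on simulated data. Replicate numbers were not used as pairs. Genes were named by rule: the 15 largest rises and 15 largest falls of the combination against E2, and the 12 and 12 of E2 against vehicle, among called genes whose arrays did not overlap and whose higher group was not dim; list members could be named anywhere. The 21 pathway and 13 marker lists held 651 genes, 614 measured. The members, lists and rules were chosen with earlier results of these data known. Promoter windows came from RefSeq (GRCm38.p6), with an entry for 33 of the 44 named genes.

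Alternatives were the 4 arrays alone, all 14 arrays (which leaves these comparisons as they are, since single arrays add nothing to the spread), the raw-file code or the replicate number as a term, an intensity trend, dim probe sets removed, another quantile normalization, median centring, the largest probe set of a gene, and each array left out in turn.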

Additional observations from a re-analysis of the deposited data

Results flagged for a closer look

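The effect of acolbifene added to E2 differed from its effect without E2 at many probe sets. The difference of both effects, taken as the change from E2 to the combination minus the change from vehicle to acolbifene, was called by limma at an adjusted p under 0.05 for 2011 of 45037 probe sets (4.47%), 697 above and 1314 below 0 (495 and 2658 after centring arrays on their medians). Among the 44 named genes 36 were called, and all values that follow are this difference on the log2 scale. Of these genes, those named for the combination against E2 were chosen by 1 of the effects compared, and those named for E2 share its arrays, so the values are a description.

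Acolbifene alone moved some of the genes that fell in the combination the other way. The difference was -2.07 for Mup10, -1.91 for Ptx3, -1.75 for Pgr, -1.73 for Adamts1 and -1.62 for Socs3, in each of which acolbifene alone read at least 0.51 above vehicle. Of these 5, limma called the rise with acolbifene alone for Mup10 (adjusted p = 0.0175), Ptx3 (adjusted p = 0.00708) and Adamts1 (adjusted p = 0.0213). It was not called for Pgr (adjusted p = 0.0546) or Socs3 (adjusted p = 0.0612). The difference was -2.55 for Krt4, -1.65 for Ccn1, -1.60 for Mmd2, -1.52 for F3, -1.43 for Mad2l1, -1.25 for Jdp2, -1.23 for Acot1, -1.12 for Rbm20, -1.08 for Phf21b and -1.04 for Gadd45a. For genes that E2 had raised and that were named for E2 alone it was -2.23 for Myh1, -1.33 for Gadd45g, -1.30 for Smim38 and -1.07 for Aqp5. Of these, acolbifene alone was called above vehicle for Myh1 (2.89) and Smim38 (1.00), not for Gadd45g (0.50) or Aqp5 (0.15). Myh1 was higher in the combination than after E2 (0.66, not called).

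For genes higher in the combination than after E2 the difference was 1.24 for Pygm, 1.18 for Igkv6-20, 0.99 for Lratd1, 0.82 for Tpx2, 0.82 for Trdn, 0.80 for Cldn8, 0.74 for Fgfr2, 0.71 for Gata3, 0.65 for 4930524B17Rik, 0.64 for Arg2 and 0.53 for Ppbp. Some genes lowered by E2 and not called in the combination against E2 were lower with acolbifene alone too. Acolbifene minus vehicle was -0.99 for Dbp, -0.73 for Ncan and -0.51 for Sqle, all called, while the combination minus E2 was -0.02, 0.34 and 0.13. For Slc7a2, Prune2 and Dixdc1 acolbifene minus vehicle was -0.34, -0.56 and -0.42, not called. The difference of effects in these genes was 1.07 for Ncan, 0.98 for Dbp, 0.76 for Slc7a2, 0.75 for Prune2, 0.72 for Dixdc1 and 0.64 for Sqle. The count of called probe sets lay between 186, without combination array 2, and 1444, without acolbifene array 2, when 1 array was left out.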

How the results depend on the processing

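For the combination against E2, 1649 probe sets were called; the fit of all 14 arrays returns the same 1649 by construction, since single arrays add nothing to the spread, and is not counted as an alternative below. The count was 931 with the 4 arrays alone, 284 with a term for the raw-file code, 3030 with an intensity trend, 1034 after another quantile normalization, 2529 after median centring and 116 to 284 when 1 array was left out; 2071 with dim probe sets removed was within 1.5 times. Same-numbered arrays were not treated as pairs: with the replicate block 1002 were called, and deviations of E2 and combination arrays of 1 number correlated at -0.117. In the 4 arrays alone, the replicate block gave 1673 and the crossed pairing 3718 (1956 higher, 1762 lower), both tried after seeing the data. For E2 against vehicle 1685 became 479 with the code, 2720 with the trend and 430 to 941 without 1 array (replicate block 1354). For the combination against vehicle 377 became 1733 with the trend, 630 without dim probe sets and 34 to 65 without 1 array (replicate block 278). For acolbifene against vehicle 269 became 1437, 706 and 27 to 64 (replicate block 188; after another quantile normalization 119 higher and 96 lower, against 183 and 86). For the difference of acolbifene effects 2011 became 1113 with the code, 1193 with the replicate block, 4176 with the trend, 1114 after another quantile normalization, 3153 after median centring and 186 to 1444 without 1 array; the cause of these shifts was not tested. Of the 30 named calls, 13 held in all alternatives and 2 more, Phf21b and Ppbp, in all but the removal of dim probe sets, which took out 6 of the 30. None was lost under the replicate block, the trend or either scaling, nor among the 24 tested without dim probe sets. The loss was 3 (all rises) with the 4 arrays alone, 10 with the code or without E2 array 1, 7 without E2 array 2, 9 without combination array 1 and 14 without combination array 2, and no named change reversed. With the probe set of largest change per gene, calls went from 3 to 6 in estrogen receptor targets, from 4 to 9 in ribosome biogenesis, from 2 to 5 in keratins, from 1 to 3 in IGF and insulin signalling and from 0 to 2 in cholesterol synthesis. The scalings moved the median of all probe sets by less than 0.1. With 2 arrays per group, and 310 probe sets over 1.5-fold apart within E2, small changes and dim probe sets are the least certain.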

Other observations

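The raw-file names of both combination arrays share their body with that of the single array of raloxifene given without E2, and the meaning of that name is not given. The median absolute log2 difference from the combination mean was 0.094 for the raloxifene array and 0.099 for the tamoxifen array. It was 0.106 to 0.110 for the other single arrays, and 0.125 to 0.169 for the arrays of vehicle, E2 and acolbifene alone. All single arrays were thus nearer to the combination than any array of those groups, not only the array with the shared name. The cause was not tested.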
